A study of Homo sapiens with 6 samples.

Results

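The 10 genes described here were picked by symbol for their place in neuroblastoma biology. They are MYCN, its antisense gene MYCNOS and the 2p24 neighbours DDX1 and NBAS, then MYC, MAX and the target gene ODC1, and finally LIN28B, ALK and LMO1. All 10 symbols matched 1 row each among the 60676 gene entries of the count table, of which 22293 had at least 1 count. RNA was counted in SK-N-BE, an established human neuroblastoma line that is known for amplification of MYCN, after 1.5 days in low-serum medium with 10 µM retinoic acid, which drives these cells towards a neuronal state. All 6 libraries share that line and that treatment, and no untreated cells were included. The 2 input libraries hold RNA from the cell extract before any probe was added. The 2 CyCoNP PD libraries hold RNA pulled down on streptavidin beads with 22 biotinylated antisense probes against CyCoNP, the long non-coding RNA LINC02381. The 2 LacZ PD libraries come from the same procedure with 5 probes against LacZ, a bacterial gene, as the control. The cDNA was amplified by PCR and read on a Nanopore flow cell. DNA was not counted, so the values below are RNA levels and not copy numbers of the amplicon.

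The libraries held 717905 and 791970 counts in input, 1512148 and 514882 in the CyCoNP pull-down, and only 18870 and 140115 in LacZ PD. A gene therefore needed 159 CPM (counts per 1e6 counts of the library) to reach 3 counts in LacZ PD 1 and 21.4 CPM in LacZ PD 2, against 1.98 to 5.83 CPM in the other 4 libraries. The reads carry no molecular identifiers and PCR copies are not separate molecules, so every interval given here covers counting error only. The target of the probes behaved as its labels say, since CyCoNP took 27.9 and 49.2 CPM of input, 7729 and 6811 CPM of CyCoNP PD, and 53.0 and 143 CPM of LacZ PD (1 and 20 counts). Of 12 markers of sympathetic neuroblasts, 10 had at least 10 counts in both inputs and none was at 0. Of 4 immune markers, PTPRC, CD3E and LYZ had 0 counts in both inputs. Of 5 epithelial markers, CDH1 had 0 counts in both inputs and KRT19 had 12 and 20. The summed level of 6 fibroblast markers, carried by the collagen genes COL1A1, COL1A2 and COL3A1, was higher in replicate 1 of each group, with 513 and 40.4 CPM in input 1 and 2, 328 and 62.2 CPM in CyCoNP PD, and 477 and 21.4 CPM in LacZ PD. LUM, another of these markers, was higher in replicate 2 of input (11.1 and 18.9 CPM) and of the CyCoNP pull-down (5.29 and 38.8 CPM), and its LacZ PD counts of 0 and 2 show no direction at these depths.

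MYCN is a transcription factor of the MYC family that is made in the developing sympathetic nervous system, and its amplification marks aggressive neuroblastoma. Like MYC, it binds DNA as a dimer with MAX, preferentially at the E-box CACGTG, and it raises genes of ribosome production, translation and polyamine synthesis. The amplified stretch of 2p24 often carries DDX1 and sometimes NBAS along with MYCN, whereas ALK, LIN28B and LMO1 are neuroblastoma genes found elsewhere in the genome.

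MYCN was by far the most abundant of the 10 genes. It gave 1100 and 1425 counts in input 1 and 2, which is 1532 and 1799 CPM, or 1666 ± 189 CPM (SD, n = 2). The level in the 2 inputs was close, and 92 genes of the whole table had a higher mean input CPM. Per kilobase of its median annotated transcript, MYCN stood at 984 CPM per kb, with 98.8% of the genes detected in input below it. MYCN lies at chr2:15940550-15947007 on the plus strand (GRCh38, annotation of GENCODE v44).

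Between genes, levels are compared per kilobase of the median transcript, as mean CPM per kb of the inputs. After MYCN came MYCNOS at 147, MAX at 120, DDX1 at 90.2, ODC1 at 46.7, LIN28B at 13.8, NBAS at 9.43, LMO1 at 0.693, MYC at 0.678 and ALK at 0.251. The 2 inputs spread widely enough that several neighbours in this order could not be told apart. MYCNOS ranged from 132 to 162 CPM per kb and MAX from 76.1 to 165, so the ranges of this pair overlapped. DDX1 ranged from 44.3 to 136 CPM per kb and ODC1 from 31.7 to 61.7, so that DDX1 overlapped both MAX above it and ODC1 below it. LIN28B, at 9.10 to 18.5 CPM per kb, overlapped NBAS, at 7.55 to 11.3. The ranges of MYCN and MYCNOS did not overlap, nor did those of ODC1 and LIN28B. LMO1, MYC and ALK rested on 1 or 2 counts and have no order. The choice of transcript mattered for the middle of the list: per kilobase of the longest transcript, MYCN at 637.5 stayed first and was followed by DDX1 at 43.6, ODC1 at 38.8, MYCNOS at 36.2 and MAX at 34.2.

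MYCN kept a high level in the CyCoNP pull-down. It had 1402 and 740 counts in CyCoNP PD 1 and 2, or 927 and 1437 CPM. Both values lay below both inputs, as did those of NBAS and LIN28B, while 20.3% of the 12565 genes tested showed the same order. In edgeR's quasi-likelihood test the log2 fold change of MYCN against input was -0.45 (SE 0.65, adjusted p = 0.999). Here and below a gene was called changed at an adjusted p under 0.05 with a log2 fold change above 1 or below -1. In bulk libraries a lower level of an RNA cannot be split into fewer cells that carry it and less RNA per cell, and a level in a pull-down is a share of the RNA recovered.

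The level of MYCN in the LacZ control was below input but did not pass the edgeR test. MYCN had 22 counts in LacZ PD 1, or 1166 CPM with an interval of 731 to 1765, and 45 counts in LacZ PD 2, or 321 CPM with an interval of 234 to 430. At the mean input level, 31.4 and 233 counts would have been drawn at these depths. The mean input count lay inside the counting interval of the shallow library and far above that of the deeper one. Both LacZ PD values lay below both inputs, as did those of MYCNOS, DDX1 and MAX, against 33.7% of all genes tested. The log2 fold change of MYCN against input was -1.94 in edgeR (SE 0.69, adjusted p = 0.617, unadjusted p = 0.0142), and the median of all tested genes was -0.68. DESeq2 gave -1.91 (SE 0.57, adjusted p = 0.0389), which made MYCN the single member called by that tool in any comparison. Over the alternatives tried, the adjusted p of this comparison ran from 0.0389 to 0.814. With library size alone as the scaling, the edgeR value was -1.27 and the median of all genes -0.34.

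Probe complementarity was examined as a description of the sequences the beads could have met. Each line gives 1 CyCoNP probe, 5′ to 3′, and capitals mark its longest stretch that pairs exactly with annotated transcripts of the gene named.
CyCoNP, probe 1: TGGCGAAAAGGGAGGGTGAA
MYCN, probe 10: atcagGCTCCAGGATGcaac
MYCNOS, probe 19: tttGTGAGGCCAGAGaacag
DDX1, probe 18: tGGCCTTGGTGTGataagaa
Probe 1 pairs over all 20 bases with CyCoNP at chr12:54126147-54126166. The stretch in MYCN is 11 bases long, in the coding sequence of exon 3 of 3 at chr2:15945863-15945873, and 32.9% of tested genes held a stretch at least as long. The stretch in MYCNOS is 12 bases long, in exon 3 of 3 at chr2:15918934-15918945 on the minus strand, and the one in DDX1 is also 12 bases long, in the 5′ UTR at chr2:15591533-15591544. A stretch of 12 or more was found in 10.1% of tested genes. The other 7 members had 10 to 12 bases, and the median over tested genes was 10. For the LacZ probes the longest stretch was 10 bases in MYCN, reached by 12.3% of tested genes, and under 8 bases in MYCNOS.

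MYCNOS, the long non-coding gene transcribed from the opposite strand of MYCN, had the largest fold change in the CyCoNP pull-down of the 7 members tested, and a single library carried most of it. MYCNOS had 75 and 102 counts in input, or 104 and 129 CPM. It had 211 counts in CyCoNP PD 1, or 140 CPM, and 348 counts in CyCoNP PD 2, or 676 CPM. LacZ PD 1 gave 0 counts, where 2.20 would have been drawn at the input level, and LacZ PD 2 gave 14 counts, or 99.9 CPM, against 16.3 at the input level. CyCoNP PD 2 thus stood far above the rest, while CyCoNP PD 1 lay only just above input 2. Among the 7 members tested, only MYCNOS had both CyCoNP PD libraries above all 4 others, as 6.55% of tested genes did. Its log2 fold change against input was 1.82 in edgeR (SE 0.83, adjusted p = 0.899, unadjusted p = 0.0452). Without CyCoNP PD 2 the edgeR value fell to 0.35, and without CyCoNP PD 1 it was 2.57 with an adjusted p of 0.171. Against LacZ PD the edgeR log2 fold change was 2.81 (SE 0.95, adjusted p = 0.753), and it was 1.33 without CyCoNP PD 2, 3.54 without CyCoNP PD 1 and 2.24 without LacZ PD 1. Without LacZ PD 2, which leaves a control library at 0 counts, the fit gave 11.19, a value that depends on the prior count and is no bound. With the replicate number as a block, edgeR gave 2.86 for the same comparison (SE 0.71, adjusted p = 0.0108), the single call among the members in that fit, where 0.716% of tested genes were called higher. Over the alternatives, the adjusted p of this comparison ran from 0.0108 to 0.911.

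Set against MYCN in the same library, MYCNOS made up 6.38% of the summed counts of the pair in input 1 (exact 95% interval 5.05 to 7.94) and 6.68% in input 2 (5.48 to 8.05). The share was 13.1% in CyCoNP PD 1 (11.5 to 14.8) and 32.0% in CyCoNP PD 2 (29.2 to 34.8). In LacZ PD 2 it was 23.7% (13.6 to 36.6), and in LacZ PD 1 it was 0 of 22 counts, for which 3 counts would be a share of 13.6% and the exact interval reaches 15.4%. The inputs were therefore alike within counting error, both CyCoNP PD libraries exceeded them beyond it, and so did the deeper LacZ PD library. The share is a ratio within a library and moves with either gene. In CyCoNP PD 2 MYCNOS lay far above both inputs, at 676 CPM, and MYCN below them, at 1437 CPM. In CyCoNP PD 1 MYCN lay below both inputs, at 927 CPM, and MYCNOS just above them, at 140 CPM. In LacZ PD 2 MYCN lay far below both inputs, at 321 CPM, and MYCNOS was at 99.9 CPM.

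MYCN and MYCNOS run in opposite directions, and their annotated exons share 98 bases at chr2:15942152-15942249. The shared stretch is 1.90% of the 5171 exonic bases of MYCNOS and 3.56% of the 2755 exonic bases of MYCN. Whether the counting used the strand of the reads is not given in the sources used here, so reads within this stretch cannot be assigned to either gene with certainty. MYCNOS itself lies at chr2:15918350-15942249 on the minus strand, and it has 5 annotated isoforms to the 3 of MYCN. When the counts of both genes were summed before the edgeR fit, an alternative added after the values had been seen, the log2 fold change was -0.13 for CyCoNP PD against input, -1.88 for LacZ PD against input and 1.76 for CyCoNP PD against LacZ PD.

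DDX1, a DEAD-box RNA helicase that is frequently co-amplified with MYCN, differed widely between the 2 inputs. It lies at chr2:15591178-15634346. DDX1 had 256 and 92 counts in input, or 357 and 116 CPM, which is a mean of 236 ± 170 CPM (SD, n = 2). It had 217 and 44 counts in CyCoNP PD, or 144 and 85.5 CPM. LacZ PD gave 2 and 16 counts, or 106 and 114 CPM, where 4.46 and 33.1 counts would have been drawn at the mean input level. Input 1 was the high library and the other 5 lay between 85.5 and 144 CPM. The edgeR log2 fold change was -0.92 in CyCoNP PD against input (SE 0.67, adjusted p = 0.999) and -1.43 in LacZ PD against input (SE 0.75, adjusted p = 0.741). Without input 1 these edgeR values were -0.03 and -0.58, without input 2 they were -1.47 and -1.96, and the second was -2.27 without LacZ PD 2. Input 1 is also the input with the higher summed fibroblast markers, whose part in the level of DDX1 was not tested.

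NBAS, which encodes a protein of retrograde transport between Golgi and endoplasmic reticulum, was scarce although it lies next to DDX1, at chr2:15166916-15561340. It gave 19 and 14 counts in input, or 26.5 and 17.7 CPM. CyCoNP PD gave 22 and 4 counts, or 14.5 and 7.77 CPM, and LacZ PD gave 0 and 3 counts. At the input level 0.416 and 3.09 counts would have been drawn in LacZ PD, so no difference was detectable there at this depth. The pooled rate in LacZ PD over that in input was 0.863, with an exact interval of 0.169 to 2.75. The edgeR log2 fold change in CyCoNP PD against input was -0.82 (SE 0.79, adjusted p = 0.999).

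Of the 46 annotated genes within 2 Mb of MYCN, 20 had at least 1 count and 11 had at least 10 in total. MYCN alone took 77.4% of the summed mean input CPM of that window. DDX1 and MYCNOS followed, and the rest were low. GACAT3, a long non-coding RNA on the far side of MYCN, had 9 and 27 counts in input, 16 and 20 in the CyCoNP pull-down, and 0 and 4 in the LacZ control. SMC6, a subunit of a complex in chromosome maintenance, had 24 and 20 counts in input, 44 and 25 in the CyCoNP pull-down, and 1 and 9 in the LacZ control. GEN1, a resolvase of recombination junctions, had 6 and 3 counts in input against 16 and 7 in the CyCoNP pull-down. The remaining 4 entries carry no symbol. One of them, the snoRNA gene ENSG00000251704, had 19 and 31 counts in input, 258 and 38 in the CyCoNP pull-down, and 1 and 4 in the LacZ control, with an edgeR log2 fold change against input of 1.96 (adjusted p = 0.581). Its annotated length of 93 bases is under the minimum read length of 100 bases, so the reads counted there were longer than the annotated RNA. The other 3 unnamed entries are long non-coding genes with 10 to 30 counts in total.

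**Figure D1:**
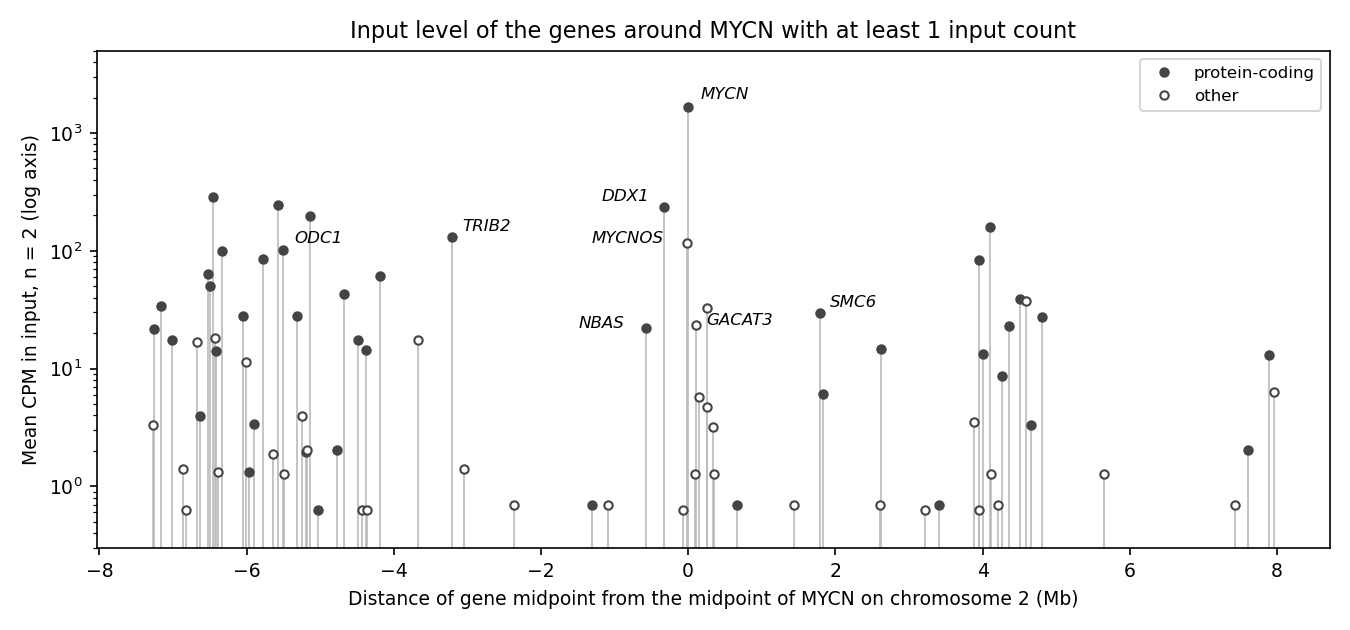
Mean CPM of the 2 inputs, on a log axis, for genes within 8 Mb of MYCN that had an input count, by the distance in Mb between gene midpoints. Filled points are protein-coding genes and open points all others. MYCN stands at 1666 CPM, above DDX1 at 236 CPM and MYCNOS at 117 CPM.

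MYC itself was almost absent. It lies at chr8:127735434-127742951 and had 1 count in each input, which is 1.39 and 1.26 CPM, 4 and 0 counts in CyCoNP PD, and 0 in both LacZ PD libraries. The pooled rate in CyCoNP PD over that in input was 1.49, on 4 against 2 counts, with an exact interval of 0.214 to 16.5. With 6 counts in total MYC fell under the minimum of 10 and was not tested. In LacZ PD only 0.0251 and 0.186 counts would have been drawn at the input level, so those libraries say nothing about MYC.

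MAX, the dimerization partner that MYCN and MYC require for DNA binding, was well covered in input. It lies at chr14:65006174-65102695 on the minus strand. MAX had 49 and 117 counts in input, or 68.3 and 148 CPM, and 128 and 54 counts in CyCoNP PD, or 84.6 and 105 CPM. LacZ PD gave 1 and 3 counts, where 2.04 and 15.1 would have been drawn at the mean input level. The CyCoNP PD values lay between the inputs, and both LacZ PD values were below all 4 other libraries, an order that 23.2% of tested genes shared. The edgeR log2 fold change was -0.17 in CyCoNP PD against input (SE 0.63, adjusted p = 0.999). In LacZ PD against input it was -2.36 (SE 0.87, adjusted p = 0.623, unadjusted p = 0.0169), and in CyCoNP PD against LacZ PD it was 2.19 (SE 0.87, adjusted p = 0.872, unadjusted p = 0.0248). The pooled rate in LacZ PD was 0.229 of that in input, with an exact interval of 0.0616 to 0.597.

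ODC1 encodes ornithine decarboxylase, the first enzyme of polyamine synthesis and a textbook target of MYC proteins. It lies at chr2:10439968-10448327 on the minus strand, outside the 2 Mb window. ODC1 had 97 and 55 counts in input, or 135 and 69.4 CPM, 89 and 47 counts in CyCoNP PD, or 58.9 and 91.3 CPM, and 1 and 12 counts in LacZ PD, or 53.0 and 85.6 CPM. The groups overlapped throughout. Its edgeR log2 fold change was -0.37 in CyCoNP PD against input (SE 0.63, adjusted p = 0.999) and -0.74 in LacZ PD against input (SE 0.73, adjusted p = 0.784). Promoter windows of 300 bases, 250 before and 50 after the start, were taken from RefSeq (GRCh38.p14) for 9 of the 10 members. The 6-base motif CACGTG, which reads the same on both strands, occurred in 1 window each of 3 members, ODC1, LIN28B and ALK. Each of these members also had a window without it. In ALK the window with the motif was chr2:29223774-29224073, inside the gene, and that at the annotated start, chr2:29921537-29921836, lacked it. In LIN28B it was the downstream window, chr6:104956857-104957156, and the upstream window, chr6:104940715-104941014, lacked it. The motif was present in 7.25% of all 35097 windows and in 9.51% of the windows of tested genes. These shares count windows and not genes. Some members have more than 1 window, so the shares cannot be set directly against 3 of 9 members. In the list of 18 MYC and MYCN target genes, 9 of 25 windows held it. The stretch around 1 of the 2 copies in ODC1, at chr2:10448026-10448051 on the minus strand, is shown with the motif in capitals, since ODC1 is the target gene among the members.
ODC1: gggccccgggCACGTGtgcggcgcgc
A match describes the letters of the window and is not a measurement of binding.

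LIN28B, an RNA-binding protein that blocks maturation of let-7 microRNAs, was the best covered of the drivers outside 2p. It lies at chr6:104936616-105083332 and had 35 and 19 counts in input, or 48.8 and 23.99 CPM, then 30 and 5 counts in CyCoNP PD, or 19.8 and 9.71 CPM, and 2 and 0 counts in LacZ PD. Both CyCoNP PD values lay below both inputs. The edgeR log2 fold change in CyCoNP PD against input was -1.12 (SE 0.86, adjusted p = 0.999), which did not pass the test. In LacZ PD 0.686 and 5.10 counts would have been drawn at the mean input level, and the pooled rate there was 0.352 of that in input, with an exact interval of 0.0415 to 1.33. ALK, a receptor tyrosine kinase mutated in familial neuroblastoma, lies at chr2:29192774-29921586. It had 0 and 1 counts in input, 5 and 2 in CyCoNP PD and 0 in both LacZ PD libraries. Its pooled rate in CyCoNP PD over that in input was 5.21 on 7 against 1 counts, and the exact interval of 0.670 to 235 includes no change. LMO1, a transcriptional cofactor of the LIM-only family at chr11:8224309-8268716, had a single count, in input 2. ALK and LMO1 had 8 and 1 counts in total and were not tested.

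Over all members, 7 of the 10 reached the minimum of 10 counts and were tested. The comparison of CyCoNP PD with input gave 0 edgeR calls among the 7, beside 0.127% of all tested genes, 0 with DESeq2, beside 0.573%, and 0 with the replicate block, beside 2.24%. MYCNOS was the only member with an unadjusted p under 0.05 there, in the higher direction, as 3.06% of tested genes were. The median log2 fold change was -0.45 over the members and -0.01 over all tested genes. For LacZ PD against input, edgeR called 0 of the 7 and 0% of all tested genes, and with the replicate block 0 of the 7 and 0.923%. MYCN and MAX had an unadjusted p under 0.05, both lower, as 6.26% of tested genes were, and DESeq2 called MYCN lower, beside 0.374% of tested genes called lower and 0.43% in either direction. The members' median was -1.41 and that of all genes -0.68, with all 7 fitted values below 0. Between CyCoNP PD and LacZ PD, edgeR again called 0 of the 7 and 0% of tested genes, DESeq2 called 0, beside 0.302%, and the replicate block gave 1, MYCNOS, beside 0.764% in either direction. Even CyCoNP, the target of the probes, was not called by edgeR there, at a log2 fold change of 6.39 (SE 0.94, adjusted p = 0.0798). DESeq2 called CyCoNP at 6.17 (adjusted p = 5.49e-15), and edgeR with the replicate block at 6.51 (adjusted p = 1.76e-09). The lack of edgeR calls in this comparison therefore does not show that the members were unchanged. Both CyCoNP PD values of MYCNOS and of MAX exceeded both LacZ PD values, as in 29.3% of tested genes. MYCN, MYCNOS and MAX had an unadjusted p under 0.05 in edgeR, all higher, as 4.69% of tested genes were. The median was 0.51 over the members and 0.64 over all tested genes. The log2 fold change of MYCN in that comparison was 1.49 (edgeR, SE 0.69, adjusted p = 0.872), and 0.77 with library size alone as the scaling. The last comparison shares its libraries with the first 2 and is not independent of them. DESeq2 gave no adjusted p to NBAS in any comparison, nor to LIN28B in those with LacZ PD. Nothing in the labels ties the 2 libraries of a group to separate cultures. The paper describes its pull-down samples as biological duplicates without saying what was duplicated. The p-values measure the spread between these libraries.

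**Figure D2:**
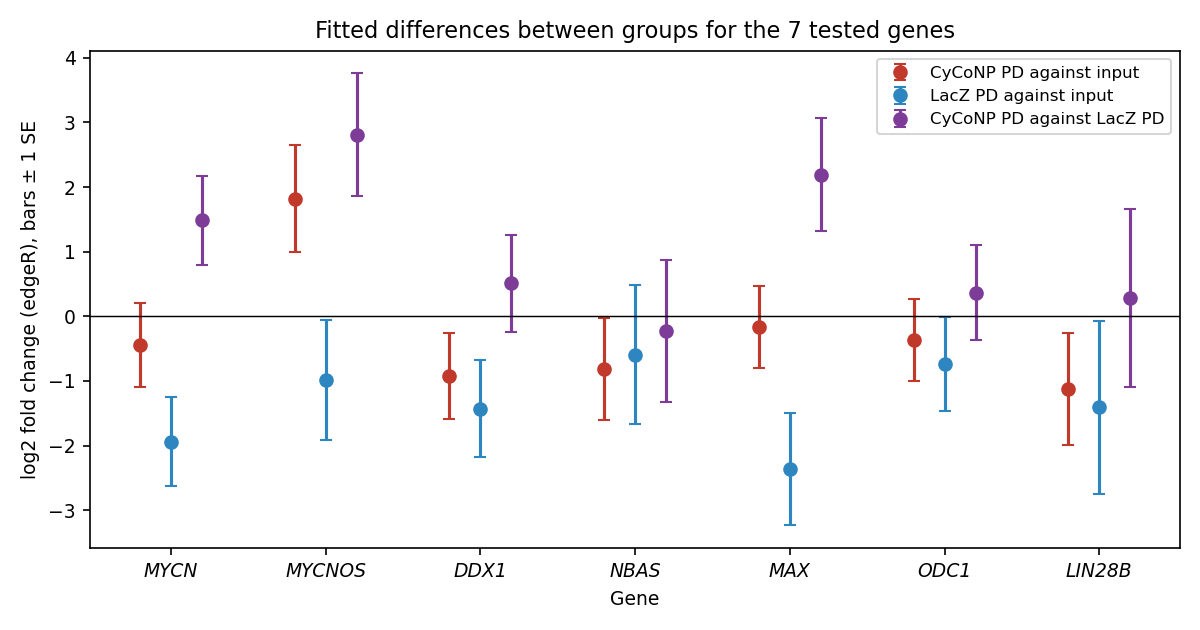
Fitted edgeR log2 fold changes with their standard errors for the 7 members that were tested, in each of the 3 comparisons. MYCNOS, at 1.82, is the only value above 0 in CyCoNP PD against input, all 7 values lie below 0 in LacZ PD against input, and none passed the adjusted threshold.

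By profile over the 6 libraries, the genes most like MYCN were CAND1, MAP2K1 and CSE1L. Likeness was the Euclidean distance between log2(CPM + 1) values, each gene centred on its own mean input value, over 1456 genes with a mean input CPM of at least 100. CAND1 had a distance of 0.521, MAP2K1 of 0.549 and CSE1L of 0.828, against a median of 3.04. CAND1, a regulator of ubiquitin ligases, had 118 and 144 CPM in input, 68.8 and 83.5 in the CyCoNP pull-down, and 106 and 21.4 in the LacZ control, the last pair on 2 and 3 counts. MAP2K1, a kinase of the MAP kinase cascade, had 173 and 260 CPM in input, 147 and 148 in the CyCoNP pull-down, and 159 and 35.7 in the LacZ control, on 3 and 5 counts. CSE1L, a nuclear transport factor, had 344 and 404 CPM in input, 251 and 210 in the CyCoNP pull-down, and 212 and 92.8 in the LacZ control. In LacZ PD 2 all 3 genes lay under both inputs, as MYCN did. They were chosen for likeness over these same libraries, so this is no separate finding. For CAND1 and MAP2K1 the LacZ PD values are near the limit of 3 counts.

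The rest of the network was described through 9 lists of 107 genes, 88 of which were tested. Of these, edgeR called 0 in each comparison. DESeq2 called 2 in LacZ PD against input, where it called 0.43% of all tested genes, and 0 in the other comparisons. With the replicate block, edgeR called 4 in LacZ PD against input, where it called 0.923% of all tested genes. Its counts of list genes in the other comparisons are not given here. In CyCoNP PD against input MDM2 and TCF12, described below, were among its calls, and it called 2.24% of all tested genes there. The list medians in CyCoNP PD against input lay between -0.98 for the LMO family and partners and 0.43 for MYC and MYCN target genes, beside -0.01 for all tested genes.

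All 13 partners of the MYC network were tested, and edgeR without the replicate block called 0 in each comparison. MLX and MLXIP, which belong to the parallel network of glucose-responsive factors, were among the 3 most abundant partners, with 57 and 46 counts and 34 and 38 counts in input. Their edgeR log2 fold changes in CyCoNP PD against input were -0.58 and 0.37 (both adjusted p = 0.999).

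Of 8 genes of MYC protein turnover, 0 had an unadjusted edgeR p under 0.05 in CyCoNP PD against input and 3 were lower by that measure in LacZ PD, where 6.26% of all tested genes were. These were FBXW7, HUWE1 and USP7. FBXW7 had 26 and 9 counts in input, 12 and 4 in CyCoNP PD and 0 in both LacZ PD libraries. Its edgeR log2 fold change of -6.81 in LacZ PD against input is therefore no bound. DESeq2 gave these 3 genes no adjusted p in that comparison. HUWE1, a ubiquitin ligase for MYC proteins, had 67 and 42 counts in input, 118 and 10 in CyCoNP PD and 0 in both LacZ PD libraries. USP7, a deubiquitinase that stabilizes MYCN, had 113 and 48 counts in input, 80 and 40 in the CyCoNP pull-down, and 1 and 0 in the LacZ control. With the replicate block both were called lower in LacZ PD (edgeR, adjusted p = 0.0377 for HUWE1 and 0.0432 for USP7). That fit called 0.923% of all tested genes in LacZ PD against input, in either direction. SKP2, a ubiquitin ligase subunit that acts on MYC, had 141 and 186 counts in input, 82 and 77 in the CyCoNP pull-down, and 1 and 19 in the LacZ control.

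Of the 18 target genes of MYC and MYCN, 17 were tested and edgeR called 0 in each comparison. NCL, or nucleolin, had 1543 and 1154 CPM in input, 2343 and 1321 in the CyCoNP pull-down, and 1325 and 1741 in the LacZ control, with an edgeR log2 fold change of 0.53 in CyCoNP PD against input (SE 0.67, adjusted p = 0.999). NPM1, a nucleolar chaperone of ribosome assembly, had 249 and 706 counts in input, 1461 and 611 in the CyCoNP pull-down, and 36 and 214 in the LacZ control, with a log2 fold change of 0.81 in edgeR (adjusted p = 0.999). NME1, a nucleoside diphosphate kinase on 17q, gave 0.47 (edgeR, adjusted p = 0.999). MDM2, the ubiquitin ligase of p53, had 36 and 19 counts in input, 156 and 75 in the CyCoNP pull-down, and 4 and 2 in the LacZ control. It gave 1.82 in edgeR without passing the adjusted threshold and was called with the replicate block at 1.90 (edgeR, adjusted p = 0.0212).

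In polyamine synthesis, the pathway that ODC1 opens, 7 of 8 genes were tested and edgeR called 0. OAZ1, the antizyme that sends ornithine decarboxylase to the proteasome, had 518 and 685 counts in input, 1514 and 358 in the CyCoNP pull-down, and 24 and 201 in the LacZ control, and its value against input was 0.16 on the log2 scale (CyCoNP PD, edgeR, adjusted p = 0.999). AMD1, which makes the aminopropyl donor, had 143 and 41 counts in input, 129 and 13 in the CyCoNP pull-down, and 5 and 4 in the LacZ control. Like ODC1, DDX1 and LIN28B, it was higher in input 1 than in input 2. SMS, spermine synthase, had 99 and 111 counts in input, 193 and 55 in the CyCoNP pull-down, and 4 and 18 in the LacZ control.

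Around LIN28B, 8 of 10 genes of the let-7 axis were tested. IGF2BP1, an RNA-binding protein and let-7 target, had 115 and 181 counts in input, 294 and 119 in the CyCoNP pull-down, and 1 and 15 in the LacZ control. HMGA1, a chromatin protein, had 113 and 137, 197 and 135, and 4 and 17 counts in the same order. DICER1, which cuts microRNA precursors, had 98 and 138 counts in input, 78 and 27 in the CyCoNP pull-down, and 4 and 5 in the LacZ control, with an edgeR log2 fold change of -1.52 in CyCoNP PD against input (adjusted p = 0.840, unadjusted p = 0.0359). LIN28A, the paralogue of LIN28B, had 0 counts in all 6 libraries.

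Of the ALK ligands and signalling genes, 7 of 10 were tested. PTN, or pleiotrophin, had 380 and 275 counts in input, 679 and 179 in the CyCoNP pull-down, and 9 and 48 in the LacZ control. MDK, or midkine, had 96 and 103 counts in input, 357 and 102 in the CyCoNP pull-down, and 3 and 30 in the LacZ control. The adaptor SHC1 had 85 and 35 counts in input against 64 and 45 in the CyCoNP pull-down. Neither PTN, at -0.05, nor MDK, at 0.79, nor SHC1, at -0.25, passed the edgeR test in CyCoNP PD against input (adjusted p = 0.999 for each). The dedicated ligands ALKAL1 and ALKAL2 had 0 and 1 counts in the whole series.

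Of the LMO family and partners, 6 of 8 were tested. LMO4 had 58 and 44 counts in input, 44 and 14 in the CyCoNP pull-down, and 0 and 7 in the LacZ control, while LMO3 and the partner TAL1 had 0 throughout. TCF12, an E protein of the helix-loop-helix class, was split by its own replicates. It had 90 counts in input 1 and 1421 in input 2, then 151 and 8 in the CyCoNP pull-down, and 1 and 1 in the LacZ control. DESeq2 called it lower in LacZ PD against input at -6.19 (adjusted p = 0.0134), and edgeR with the block called it lower there at -6.44 (adjusted p = 5.51e-07) and in CyCoNP PD against input at -3.39 (adjusted p = 0.00257). TCF3, the related E protein, had 31 and 37 counts in input, 36 and 7 in the CyCoNP pull-down, and 0 and 3 in the LacZ control.

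Among 20 other neuroblastoma genes, 16 were tested. ATRX, a chromatin remodeller lost in some neuroblastomas of older patients, had 251 and 466 counts in input, 290 and 58 in the CyCoNP pull-down, and 3 and 9 in the LacZ control. It was called lower in LacZ PD against input with DESeq2 at -2.77 (adjusted p = 0.0173) and with the block in edgeR at -2.88 (adjusted p = 0.0103). HAND2, a transcription factor of the sympathetic lineage, had 124 and 74 counts in input, 174 and 61 in the CyCoNP pull-down, and 1 and 8 in the LacZ control. CASC15, a long non-coding RNA of a neuroblastoma risk locus, had 134 and 116, 226 and 95, and 7 and 5 counts in the same order. Of 12 further genes of 2p24 and its surroundings, 6 were tested and edgeR called 0. TRIB2, a pseudokinase, had 146 and 46 counts in input, 85 and 26 in CyCoNP PD, and 2 in each LacZ PD library. LPIN1, a phosphatidate phosphatase, had 42 and 51 counts in input, 42 and 21 in the CyCoNP pull-down, and 0 and 4 in the LacZ control.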

How the data were processed

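The 6 Nanopore PCR-cDNA libraries, 2 per group, were analysed from their gene counts. The authors basecalled with Guppy 6.4.6, removed reads under 100 bases with NanoFilt 2.8.0, aligned to GRCh38 with minimap2 2.24-r1122, counted with Bambu 1.1.2 on Ensembl 99 without isoform discovery, and deposited counts per gene without normalization. The authors also deposited CPM, which equal the counts divided by the library total. Only the pull-downs received dextran sulfate and more PCR reactions, which cannot be told apart from the pull-down itself.

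From these, 12565 genes with at least 10 counts over the 6 libraries were fitted together with edgeR 4.0.16 in R 4.3.3 (TMM, quasi-likelihood test, all 3 groups in one fit, Benjamini-Hochberg adjustment over all tested genes). A call needed an adjusted p under 0.05 together with an absolute log2 fold change above 1. SEs of log2 fold changes were derived from the test statistic. The script was tested on simulated counts with large changes in CyCoNP PD against input. The comparisons with LacZ PD were not simulated. Symbols, positions and transcripts came from GENCODE v44. Counting intervals are exact at 95%.

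Same-numbered libraries deviated together across genes, with correlations of 0.442 (input and CyCoNP PD), 0.219 (input and LacZ PD) and 0.225 (CyCoNP PD and LacZ PD), which met the criterion for treating the numbers as pairs. The pairing was read from the data and not from the labels, and the main fit left it out, as the authors named no block. The fit with the replicate block is an alternative, given where it changes the call of a gene whose values are reported here. Replicates of a group differed by 4.11 to 18.4 chi-square per degree of freedom and are separate libraries.

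The 10 members, the 9 lists and the markers were chosen with earlier results of these data known. Beyond the members and CyCoNP, the genes named are the 3 most abundant in input of each list, every list gene called in any comparison, genes with at least 10 counts within 2 Mb of MYCN, and the 3 with the profile most like MYCN. FBXW7, LIN28A, ALKAL1, ALKAL2, LMO3 and TAL1 were named after their values were seen. Values of 2 genes, a list gene and a marker, are not reported here. The alternatives were DESeq2 1.42.0, DESeq2's size factors, library size alone, no count filter, edgeR's filterByExpr, a replicate block, a fit of only the 2 groups compared, and fits that drop 1 library at a time.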

Additional observations from a re-analysis of the deposited data

How the results depend on the processing

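Of 276 refits of the members' fold changes, 264 kept direction without gaining a call (4 of them DESeq2 refits without an adjusted p, which were not placed against the threshold), 2 gained a call and 10 changed sign; the causes were not tested. The calls gained were MYCN in LacZ PD against input with DESeq2 (-1.91) and MYCNOS in CyCoNP PD against LacZ PD with the replicate block (2.86), and the block changed no other member's call. The values behind the sign changes lay within 1 SE of 0, except LIN28B in LacZ PD against input, which rests on 2 LacZ PD counts. In CyCoNP PD against input, MAX became 0.62 without input 2 (from -0.67 over the left-out libraries) and ODC1 0.069 without input 1 (from -0.71). In LacZ PD against input, LIN28B became 0.41 without LacZ PD 2, and its lowest value of -7.68 rests on a library at 0. In CyCoNP PD against LacZ PD, NBAS ranged from -0.84 to 6.11, positive without CyCoNP PD 2 (0.09) or LacZ PD 2 (6.11), ODC1 was -0.042 with library size alone, and LIN28B was -0.25 with library size alone, -0.36 with DESeq2 and between -1.52 and 6.56 over the left-out libraries. Without LacZ PD 2, whose removal leaves few counts in that group, the edgeR values in LacZ PD against input also moved to -2.08 for ODC1, -6.93 for NBAS and -9.35 for MYCNOS, the last 2 against a library at 0 counts and so no bounds, and in CyCoNP PD against LacZ PD they moved to 1.36 for DDX1 and 1.72 for ODC1. Without LacZ PD 1, MYCN became -2.57 in LacZ PD against input and 2.12 in CyCoNP PD against LacZ PD. Without input 2, MAX became -1.55 in LacZ PD against input, and without CyCoNP PD 1, LIN28B became -1.80 and NBAS -1.41 in CyCoNP PD against input.

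Over all genes, the 16 called in CyCoNP PD against input became 6 with library size alone, 126 without the count filter, 281 with the replicate block, 72 with DESeq2, 0 with only the 2 groups (unadjusted p under 0.05: 364 up, 330 down) and 0 to 119 over the left-out libraries, with 0 when either LacZ PD library was dropped. In LacZ PD against input edgeR called 0 (unadjusted p under 0.05: 93 up, 787 down), and 36 without the filter, 116 with the block, 54 with DESeq2, 22 with only the 2 groups and 0 to 24 over the left-out libraries. In CyCoNP PD against LacZ PD edgeR called 0 (unadjusted p under 0.05: 589 up, 59 down), and 1 with library size alone, 62 without the filter, 96 with the block, 38 with DESeq2, 61 with only the 2 groups and 0 to 61 over the left-out libraries. Depth limits the members in LacZ PD most: at input levels, NBAS, LIN28B, MYC and ALK would give at most 5.10 counts in either library.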

Other observations

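Beyond the 2 Mb window, the most abundant genes within 8 Mb of MYCN in input were IAH1 at 288 CPM, HPCAL1 at 247 CPM and PDIA6 at 198 CPM, near the 236 CPM of DDX1 and well under the 1666 CPM of MYCN. These genes were picked with their values in view. The collagen genes behind the fibroblast marker sum had replicate-specific counts: COL1A1 had 192 and 10 counts in input, 186 and 3 in the CyCoNP pull-down, and 4 and 1 in the LacZ control.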
